A study of Mus musculus with 20 samples.

Results

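Macrophages were set against monocytes, both sorted from MC38 tumours of mice that received an antibody to PD-L1, with 5 libraries of each population. These 10 libraries were taken by their titles, Macrophage aPDL1 and Monocyte aPDL1, from the 20 libraries of the series. MC38 is a mouse colon carcinoma line that grows as a transplanted tumour, and PD-L1 is the ligand of the T cell inhibitory receptor PD-1. RNA was taken 7 days after treatment started. The other 10 libraries are the same 2 populations from control tumours, 5 each, and serve below to mark genes that follow fibroblast RNA and for a comparison of the difference. The labels give no genetic alteration, strain, age or sex for any group, and do not say what the control mice received. Neither the surface markers of the sorted gates nor whether each library is a different animal is given in the sources used here, so p-values reflect sample-to-sample spread alone, which could be technical. Replicate numbers follow the order of deposit and only name the libraries.

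Monocytes enter tumours from the blood. Classical monocytes carry Ly6C and the chemokine receptor CCR2, and nonclassical monocytes depend on the nuclear receptor NR4A1. In tissue, monocytes can mature into macrophages, which lose Ly6C and gain F4/80, complement C1q and scavenger receptors, and which engulf dying cells and process them in lysosomes. Both populations answer interferons, of which T cells supply IFN-gamma, through STAT and IRF factors that bind short promoter elements. Fibroblasts share many matrix, growth factor and protease genes with macrophages, so fibroblast RNA in a sorted library can hide which myeloid cell makes such a transcript.

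Each of the 10 libraries held between 30191509 and 36514133 counts, the same range as all 20. A floor of 3 counts was 0.0994 CPM in the shallowest library. CPM of single genes scale the counts by TMM library sizes. The floor and the summed levels of gene lists scale them by total counts alone, so the 2 kinds of CPM differ slightly. Levels below are CPM given as mean ± SD with n = 5, and the values of single libraries are listed from replicate 1 to replicate 5. Fold changes, medians of lists and values in brackets with or without an SE are log2 fold changes, positive where macrophages were higher, from edgeR's quasi-likelihood test. A gene was called where its p, adjusted by Benjamini and Hochberg over the 14190 genes tested, was under 0.05. The fibroblast marker level, the mean log2 CPM of 19 markers such as Col1a1, Dcn and Pdgfra, lay between 0.99 and 3.05 in the treated macrophage libraries and between 1.19 and 3.53 in the treated monocyte libraries. In the control groups it reached 5.41 and 5.97. Monocyte replicates 3 and 5 and macrophage replicate 2 stood highest among the treated libraries. Summed T cell markers stood at 13.5 to 35.2 CPM in macrophage and 13.1 to 36.7 CPM in monocyte libraries, and NK cell markers at 5.15 to 42.7 and 15.2 to 87.9 CPM. Epithelial markers summed to 57.5 to 108 CPM in macrophages and 13.9 to 39 CPM in monocytes, almost all of it Cdh1, while the keratin genes Krt8 and Krt18 had at most 30 counts over the 5 libraries of either group.

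**Figure D1:**
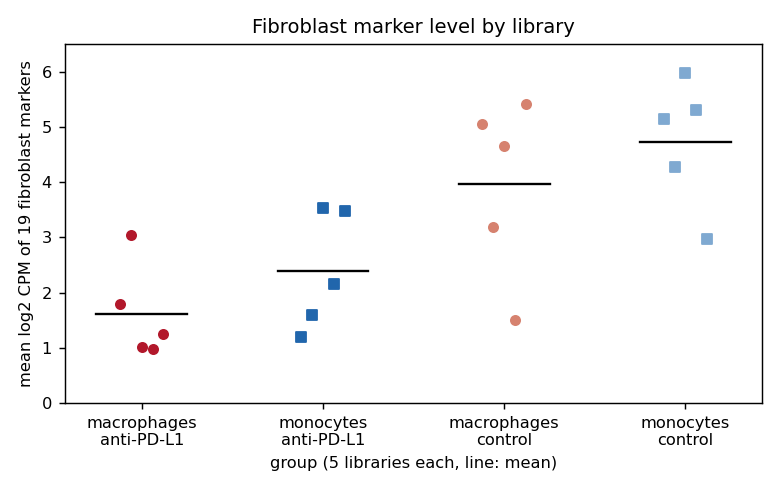
Mean log2 CPM of 19 fibroblast markers (y axis) in each library of the 4 groups (x axis), points for libraries and a line for the mean of 5. The treated libraries sit between 0.99 and 3.53 and the control libraries between 1.51 and 5.97, so the ranges overlap while the highest levels are in controls.

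The populations differed in most of the transcriptome. Of 14190 genes, 4538 were higher in macrophages (32%) and 4479 were higher in monocytes (31.6%), 63.5% in all, so single calls are read below against that background. A difference of at least 2-fold was called for 1560 genes in macrophages (11%) and 1403 in monocytes (9.89%). In 50.1% of genes all 5 libraries of one population lay above all 5 of the other. In bulk libraries such as these, fewer cells of a type and less RNA per cell cannot be told apart.

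The markers given for the populations divided as their labels say. C1qa (Entrez 12259, chromosome 4, 136895916 to 136898844), a chain of complement C1q, was at 4378, 5205, 4345, 4821 and 4773 CPM in macrophages and 568, 625, 427, 609 and 586 CPM in monocytes. Every macrophage library was above every monocyte library, with monocyte replicate 3 lowest (log2 fold change 3.06, SE 0.11, adjusted p = 3.05e-09). Cadm1 (Entrez 54725, chromosome 9, 47530170 to 47862280), an adhesion molecule, was at 227, 221, 212, 165 and 206 CPM in macrophages and 1.94, 1.81, 4.31, 2.77 and 3.11 CPM in monocytes. It had the highest fold change among genes that passed the test and averaged a log2 CPM of 4 or more (log2 fold change 6.20, SE 0.21, adjusted p = 2.15e-09), and again the groups did not overlap. Ly6c2 (Entrez 100041546, chromosome 15, 75108161 to 75112066), which encodes the Ly6C antigen of classical monocytes, was at 9.19, 8.22, 6.51, 21.8 and 5.98 CPM in macrophages and 1113, 1628, 1469, 1339 and 1933 CPM in monocytes. Macrophage replicate 4 stood highest among macrophages and was still far below all monocyte libraries (log2 fold change -7.18, SE 0.39, adjusted p = 3.38e-08). Ace (Entrez 11421, chromosome 11, 105967948 to 105989964), a peptidase gene of nonclassical monocytes, was at 0.658, 0.567, 0.968, 0.799 and 1.09 CPM in macrophages and 420.1, 227, 629, 354 and 552 CPM in monocytes (log2 fold change -9.05, SE 0.34, adjusted p = 3.21e-09). Ly6 family genes are close relatives, and their counts are uncertain because only uniquely aligned reads were kept.

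**Figure D2:**
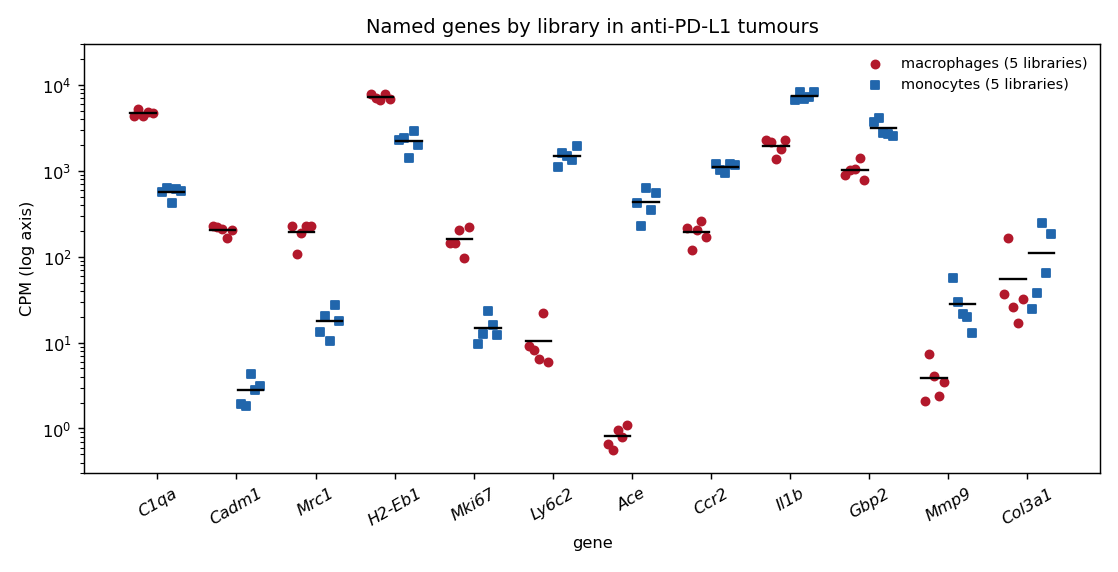
CPM on a log axis (y axis) of 12 named genes (x axis) in each of the 5 macrophage and 5 monocyte libraries from anti-PD-L1 tumours, with a line at each mean. The groups separate in every gene shown except Col3a1, a fibroblast collagen, whose libraries overlap.

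Genes that rise with the fibroblast marker level were found in the 10 control libraries, which the treated comparison does not use. They are called genes that follow fibroblast RNA, while the cells that made their RNA were not tested. There, 1411 of 14931 genes (9.45%) had a positive slope on the fibroblast marker level past the test, with cell type in the model. Without the markers themselves this left 1393 genes, of which 899 were tested in the treated libraries. At the threshold, the last gene inside was Ppp2r3a, with a slope of 0.23, and the first outside was Mtx3, at 0.22 (log2 change per unit of fibroblast marker level). In the treated comparison, 151 of the 899 were higher in macrophages and 141 in monocytes (32.5% called), against 65.6% of the other 13291 genes, with a median log2 fold change of -0.27 against -0.00. The median SD of log2 CPM within a group of these 899 genes was 0.46 in treated and 0.98 in control libraries. They were chosen because they varied in the controls, so this contrast describes the choice as well. Over all genes tested in the 20 libraries it was 0.18 and 0.26.

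The fibrillar collagens of the fibroblast marker list gave no call. Col3a1 (Entrez 12825, chromosome 1, 45311538 to 45349706), a fibrillar collagen, was at 36.9, 167, 25.6, 16.9 and 31.9 CPM in macrophages and 24.6, 38.2, 248, 64.7 and 184 CPM in monocytes. Macrophage replicate 2 and monocyte replicates 3 and 5, the libraries highest in fibroblast markers, held the high values of their groups (log2 fold change -1.01, SE 0.72, adjusted p = 0.244). Without macrophage replicate 2 its log2 fold change was -1.98 and passed (adjusted p = 0.017), and with neighbouring libraries as a replicate block it was -0.999 and also passed (adjusted p = 0.0114). Col1a1 was at 4, 4.98, 2.93, 2.66 and 1.75 CPM in macrophages and 1.66, 10.1, 4.64, 3.99 and 12 CPM in monocytes, overlapping groups (log2 fold change -0.99, SE 0.46, adjusted p = 0.0778). Without monocyte replicate 1 it passed (-1.24, adjusted p = 0.0134), as it did with DESeq2 (-1.003, adjusted p = 0.0345). Of 18 fibroblast markers tested, 16 were not called and 2 were higher in monocytes, the growth factor receptor gene Pdgfrb (-1.94, SE 0.39) and the protease gene Fap (-1.32, SE 0.29), at 2.61 ± 0.994 and 1.17 ± 0.291 CPM in monocytes. All 18 had a negative fold change, with a median of -0.94. The perlecan gene Hspg2 (-0.95, adjusted p = 0.293) and the matrix protein gene Sparc (-0.61, adjusted p = 0.344), both rising with fibroblast RNA in controls, overlapped between the groups and were named after their values were seen.

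A second set of genes with fibroblast-type expression was far apart between macrophages and monocytes. Col14a1 (Entrez 12818, chromosome 15, 55307644 to 55520803), which encodes collagen XIV of fibroblast matrix, was at 129, 165, 247, 176 and 226 CPM in macrophages and 4.11, 3.84, 4.4, 3.49 and 9.77 CPM in monocytes. Every macrophage library was above every monocyte library, among which replicate 5 was highest (log2 fold change 5.21, SE 0.30, adjusted p = 5.18e-08). Its slope on the fibroblast marker level in controls was -0.05, so it was not among the genes that follow fibroblast RNA. Gas6 (Entrez 14456, chromosome 8, 13465374 to 13494535), the ligand that bridges dying cells to MERTK and AXL, was at 26.9, 23.4, 23.5, 33.3 and 44 CPM in macrophages and 0.575, 0.657, 1.71, 1.56 and 1.63 CPM in monocytes. The groups did not overlap (log2 fold change 4.62, SE 0.30, adjusted p = 1.27e-07), and the control slope was 0.01. Thbs1 (Entrez 21825, chromosome 2, 118111876 to 118127133), the gene of the matricellular protein thrombospondin 1, was at 613, 556, 355, 598 and 540.3 CPM in macrophages and 4839, 5022, 4891, 4281 and 4419.5 CPM in monocytes. Macrophage replicate 3 was the lowest library, and every monocyte library was above every macrophage library (log2 fold change -3.14, SE 0.14, adjusted p = 9.48e-09, control slope -0.12). Timp1 (Entrez 21857, chromosome X, 20870166 to 20874737), an inhibitor of metalloproteinases, was at 1.57, 3.34, 1.2, 3.17 and 1.58 CPM in macrophages and 29.1, 38, 24.7, 19.8 and 21.2 CPM in monocytes, without overlap (log2 fold change -3.62, SE 0.29, adjusted p = 6.31e-07). With all 20 libraries in the fit it was -3.60 in treated and -2.30 in control tumours, a difference that did not pass (adjusted p = 0.752). On that scale macrophages held 2.33 ± 1.07 CPM in treated and 6.68 ± 4.14 CPM in control tumours.

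Of 62 tested genes known to be made by both fibroblasts and macrophages, 17 were higher in macrophages, 25 were higher in monocytes and 20 were not called, with a median of -0.63. This was 67.7% called, near the 63.5% of all genes. This list was drawn in part from earlier results of these data, so its makeup is no independent evidence. Of its members, 20 follow fibroblast RNA in the controls, and of these 2 were higher in macrophages, 8 in monocytes and 10 were not called. Of the 42 others, 15 were higher in macrophages, 17 in monocytes and 10 were not called. On the macrophage side stood Gas6, the inhibitor gene Timp2 (126 ± 25.9 against 32.9 ± 13.8 CPM, 1.94, SE 0.24), the collagenase gene Mmp13 (152 ± 20.5 against 39.6 ± 15.8 CPM, 1.94, SE 0.21) and the growth factor genes Pdgfc (3.12, SE 0.35) and Hgf (0.99, SE 0.08). They also included Vcam1, an adhesion molecule for integrins (110.3 ± 41.8 against 8.67 ± 5.39 CPM, 3.67, SE 0.39), Nrp1, a co-receptor for VEGF and semaphorins (1.51, SE 0.12), the lipid transfer protein gene Pltp (1.45, SE 0.15), the tetraspanin gene Cd63 (2.36, SE 0.22) and the complement gene C4b (1.46, SE 0.16). On the monocyte side stood Thbs1, Timp1, the calcium-binding protein gene S100a6 (-2.62, SE 0.17), the fibronectin gene Fn1 (1320.5 ± 518 against 4756 ± 1263 CPM, -1.85, SE 0.27), the angiogenic factor gene Vegfa (-1.12, SE 0.12), the transglutaminase gene Tgm2 (-1.17, SE 0.13) and Tgfbi, a matrix protein induced by TGF-beta (-0.73, SE 0.10). Of the genes named here, Timp2, Mmp13, Pdgfc, Vcam1, Fn1 and Tgfbi were chosen after their values were seen.

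Among the genes that follow fibroblast RNA, the largest separated differences were on the monocyte side. Inhba (Entrez 16323, chromosome 13, 16004256 to 16031609), which encodes the activin A subunit, was at 1.47, 3.25, 0.811, 1.83 and 1.69 CPM in macrophages and 22.4, 106, 30.4, 17.7 and 29.2 CPM in monocytes. Monocyte replicate 2 was highest, and the groups did not overlap (log2 fold change -4.52, SE 0.55, adjusted p = 1.8e-05). Mmp9 (Entrez 17395, chromosome 2, 164940326 to 164955850), a gelatinase of neutrophils and other myeloid cells, was at 2.1, 7.28, 4.11, 2.37 and 3.47 CPM in macrophages and 56.5, 30, 21.7, 19.7 and 12.8 CPM in monocytes. Monocyte replicate 1, also the library highest in S100a9, was highest, and the groups did not overlap (log2 fold change -2.87, SE 0.43, adjusted p = 9.23e-05, control slope 1.34). Csf1 (Entrez 12977, chromosome 3, 107741048 to 107760469), the growth factor of macrophages, was at 8.15, 11.3, 6.38, 5.2 and 6.03 CPM in macrophages and 53.4, 58.5, 33.2, 34.7 and 20.6 CPM in monocytes, again without overlap (log2 fold change -2.44, SE 0.29, adjusted p = 1.4e-05). The transcriptional repressor gene Hic1 (-2.73), the cell cycle regulator gene Rgcc (-2.34) and the tissue factor gene F3 (-1.87) completed the 6 lowest fold changes among separated members that averaged a log2 CPM of 4 or more. Cxcr2, a member below that level, is described with the neutrophil genes.

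On the macrophage side of the same set the 6 highest under the same conditions were the methionine salvage gene Mtap (36.2 ± 3.27 against 18 ± 3.76 CPM, 1.01, SE 0.13), the GTPase regulator gene Arhgap5 (0.94), Shmt2 of mitochondrial folate metabolism (0.93), Ppfibp1 (0.91), the pseudouridine synthase gene Dkc1 (0.81) and the lysyl oxidase relative Loxl3 (36.2 ± 5.17 against 20.9 ± 2.65 CPM, 0.79, SE 0.11). Of the members known in both cell types, Vegfc (-2.52), the atypical chemokine receptor gene Ackr3 (-1.57), Asap2 (-1.02) and Adgrl2 (-0.80) were higher in monocytes in each of the 18 other settings tried, like Mmp9, at means of 1.9 ± 0.912, 4.85 ± 1.11, 5.62 ± 1.07 and 5.47 ± 1.83 CPM. The libraries of Vegfc and Adgrl2 overlapped between the groups. The calls of the other 5 were lost in some settings. Col4a1, a basement membrane collagen (-1.44, SE 0.50), did not pass without monocyte replicate 3 or without macrophage replicate 3, 4 or 5 (highest adjusted p = 0.0726), or with all 20 libraries in the fit (-1.42, adjusted p = 0.106), and was -0.79 with the fibroblast covariate (adjusted p = 0.00288). Timp3 (-1.56, SE 0.57) did not pass without any of those 4 libraries or without monocyte replicate 5 (highest adjusted p = 0.0922). It was also lost in limma-voom (adjusted p = 0.0574), with all 20 libraries (adjusted p = 0.0719), with the fibroblast covariate (-0.62, adjusted p = 0.161) and without the 3 libraries highest in fibroblast markers (-0.49, adjusted p = 0.418). Mfge8, a bridge to dying cells (-0.51, SE 0.18), did not pass without macrophage replicate 1 or 2 or monocyte replicate 3 or 5 (highest adjusted p = 0.0641). It was also lost with all 20 libraries (adjusted p = 0.174), with the fibroblast covariate (-0.36, adjusted p = 0.111) and without the 3 libraries highest in fibroblast markers (-0.16, adjusted p = 0.408). Mmp2, higher in macrophages (1.01, SE 0.38), did not pass without macrophage replicate 1, 4 or 5 or monocyte replicate 1, 2 or 4 (highest adjusted p = 0.0847) or with all 20 libraries (adjusted p = 0.0823), and was 1.88 without the 3 libraries highest in fibroblast markers (adjusted p = 0.000661). Angptl2, also higher in macrophages (0.61, SE 0.25), passed without macrophage replicate 1 or without monocyte replicate 3 and was lost on leaving out any of the other 8 libraries (highest adjusted p = 0.102), with all 20 libraries (adjusted p = 0.089) and with DESeq2's size factors in edgeR (adjusted p = 0.0506). These 9 genes were named after their values were seen.

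The count on the macrophage side changed with the handling of fibroblast RNA. It was 227 without monocyte replicate 3, 232 without the 3 treated libraries highest in fibroblast markers and 266 once the fibroblast marker level was added as a covariate, against 151. When all 20 libraries shared an estimate of the spread, 94 of these genes were higher in macrophages and 89 in monocytes. With the replicate block both counts rose, to 209 in macrophages, against 151, and to 212 in monocytes, against 141. The summed fibroblast markers stood at 62.1 to 451 CPM in macrophage and 69.9 to 643 CPM in monocyte libraries.

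**Figure D3:**
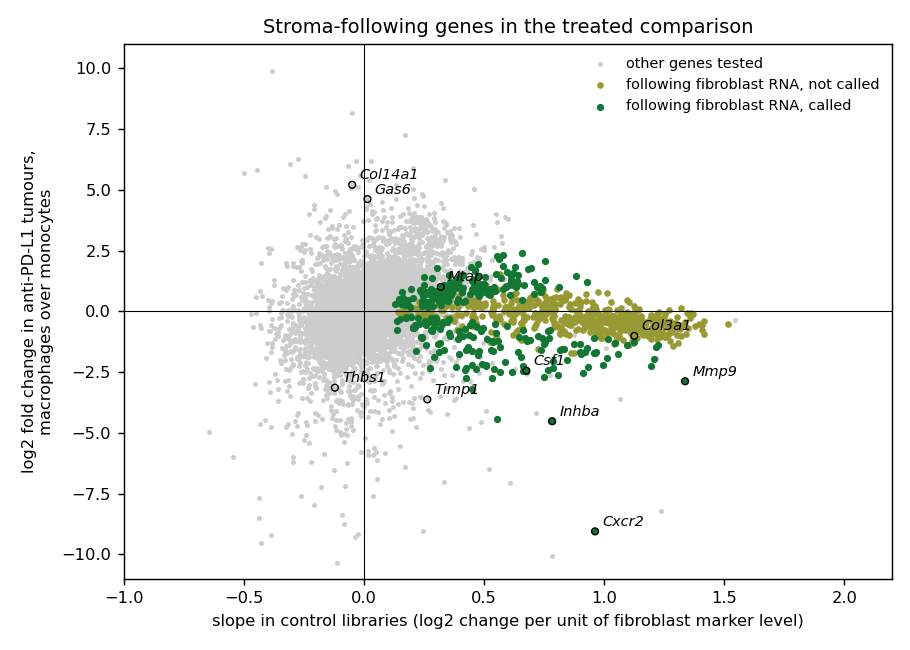
Log2 fold change of macrophages over monocytes in anti-PD-L1 tumours (y axis) against the slope on the fibroblast marker level in control libraries (x axis), 1 point per gene. Green points mark the called and olive points the uncalled genes among the 899 that follow fibroblast RNA, and circles mark named genes such as Mmp9 (slope 1.34, log2 fold change -2.87) and Col14a1 (slope -0.05, log2 fold change 5.21).

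Most macrophage identity genes were higher in macrophages. Of 23 macrophage markers, 16 were higher in macrophages and 2 in monocytes, with a median of 1.79. The C1q chains C1qb (2.49, SE 0.11) and C1qc (2.95, SE 0.10) followed C1qa, and Adgre1, the gene of F4/80, was at 1253 ± 146 against 363 ± 23.2 CPM (1.79, SE 0.09). Mrc1 (Entrez 17533, chromosome 2, 14229414 to 14332023), the mannose receptor gene, was at 229, 108, 191, 225 and 228 CPM in macrophages and 13.4, 20.4, 10.5, 27.5 and 18.1 CPM in monocytes. Macrophage replicate 2 was the lowest macrophage library and still above all monocytes (log2 fold change 3.45, SE 0.28, adjusted p = 5.81e-07). The apolipoprotein gene Apoe (10506 ± 2090.2 against 1977 ± 388 CPM, 2.41, SE 0.17), the lipid receptor gene Trem2 (1.19, SE 0.13) and the engulfment receptor gene Mertk (1.68, SE 0.15) were higher in macrophages. Lyve1 and Folr2, markers of resident tissue macrophages, were at 5.61 ± 5.42 and 12.4 ± 8.83 CPM in macrophages and 0.382 ± 0.21 and 1.61 ± 0.46 CPM in monocytes. Cd163, a haemoglobin scavenger receptor gene, was at 0.709, 0.536, 0.811, 0.971 and 6.28 CPM in macrophages and 0.605, 0.493, 0.479, 0.592 and 0.654 CPM in monocytes. The groups overlapped and the call rested on macrophage replicate 5, without which it no longer passed (0.42, adjusted p = 0.182). It also did not pass on leaving out any of the 5 monocyte libraries (highest adjusted p = 0.0672) or in limma-voom (adjusted p = 0.18), with all 20 libraries (adjusted p = 0.0826), with the fibroblast covariate (adjusted p = 0.161) or without the 3 libraries highest in fibroblast markers (adjusted p = 0.0612). Mertk, Lyve1, Folr2, Cd163 and Fcgr1 were named after their values were seen. The markers higher in monocytes included Fcgr1, the high-affinity IgG receptor (-0.49, SE 0.09). Csf1r, the CSF1 receptor gene, was at 2276 ± 212 against 2666 ± 286 CPM and was not called with all 10 libraries (log2 fold change -0.23, SE 0.09, adjusted p = 0.0508), but 8 of 18 other settings called it higher in monocytes. These were the fits without monocyte replicate 3 (-0.28, adjusted p = 0.0186), monocyte replicate 5 (-0.25, adjusted p = 0.0457) or macrophage replicate 4 (-0.26, adjusted p = 0.0445), without the 3 libraries highest in fibroblast markers (-0.24, adjusted p = 0.0402), with the replicate block (-0.23, adjusted p = 0.00704), with the fibroblast covariate (-0.34, adjusted p = 0.000952), and with DESeq2 (adjusted p = 0.0222) or its size factors (adjusted p = 0.0476).

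Other genes at the top by the rule for named genes were Asb2, a ubiquitin ligase subunit (81.4 ± 16.6 against 1.28 ± 0.382 CPM, 5.98, SE 0.21), the secretory membrane protein gene Scamp5 (5.11, SE 0.21), the Fc receptor relative Fcrls (5.10, SE 0.34), the chemokine gene Ccl8 (5.04, SE 0.42), the lipid transfer domain gene Stard13 (4.37, SE 0.34), the transporter gene Slco2b1 (4.28, SE 0.29), the tetraspanin gene Cd81 (4.15, SE 0.16) and the replication factor gene Pclaf (4.07, SE 0.40). In each of these genes the lowest macrophage library was above the highest monocyte library.

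Calls of antigen presentation genes leaned to macrophages for class II and, by less than 2-fold, to monocytes for class I. Of 12 MHC class II genes, 8 were higher in macrophages and 0 in monocytes (66.7% called, against 63.5% of all genes), with a median of 0.55. H2-Eb1 (Entrez 14969, chromosome 17, 34305867 to 34316674), a class II beta chain, was at 7765, 6973, 6687, 7764 and 6867 CPM in macrophages and 2276, 2421, 1429.5, 2875 and 2025 CPM in monocytes. Monocyte replicate 3 was lowest, and the groups did not overlap (log2 fold change 1.71, SE 0.15, adjusted p = 1.55e-06). H2-Aa (1.27, SE 0.15), H2-Ab1 (1.15, SE 0.17), H2-Ob (1.52, SE 0.12) and the invariant chain gene Cd74 (1.25, SE 0.13) were also higher in macrophages. Of 20 MHC class I genes, 11 were higher in monocytes and 3 in macrophages (70% called), with a median of -0.27. Of these, 0 differed by 2-fold or more. The summed class I level overlapped, at 18987 to 21640 CPM in macrophage and 18280 to 20927 CPM in monocyte libraries. The class I regulator gene Nlrc5 (-0.85, SE 0.14) and the peptide transporter genes Tap1 (-0.57, SE 0.10) and Tap2 (-0.69, SE 0.12) were higher in monocytes, and the 3 on the macrophage side were the chaperone genes Pdia3 (0.55, SE 0.07), Calr (0.38, SE 0.09) and Canx (0.27, SE 0.06), the latter 2 named after their values were seen. Counts of H2 genes are uncertain for the same reason as those of the Ly6 family.

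Dendritic cell genes did not move together. Xcr1 (2.42, SE 0.19), Clec9a (2.11, SE 0.13) and Batf3 (1.64, SE 0.12), genes of conventional type 1 dendritic cells, were higher in macrophages, while 6 of 13 tested members were higher in monocytes. Flt3, a growth factor receptor of dendritic cells, was at 0.0759, 0.0945, 0.0785, 0.114 and 0.218 CPM in macrophages and 5.42, 4.7, 10.2, 4.18 and 8.04 CPM in monocytes. Summed over the list, the level was 78.7 to 116 CPM in macrophage libraries and 55.2 to 111 CPM in monocyte libraries. The part of dendritic cells in the class II difference, and in that of Cadm1, was not tested.

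Of 36 lysosomal genes, 19 were higher in macrophages and 4 in monocytes (63.9% called, against 63.5% of all genes), with a median of 0.30. Lgmn, the protease legumain, was at 3519 ± 173 against 1307 ± 149.6 CPM (1.43, SE 0.09), and Hexa (0.94, SE 0.08) and Lipa (0.90, SE 0.07), enzymes for glycolipids and cholesteryl esters, were higher by smaller margins. Complement genes divided into 8 higher in macrophages and 4 in monocytes of 15. Lipid handling genes divided into 8 and 8 of 23, and efferocytosis and scavenger receptor genes into 9 and 9 of 23. The phosphatidylserine receptor gene Havcr2 (-0.82, SE 0.07) and the pattern receptor gene Clec7a (-1.68, SE 0.12) were on the monocyte side, and Marco, a scavenger receptor gene, was at 0.566 ± 0.38 against 0.0252 ± 0.0272 CPM. Of 14 iron genes, 7 were higher in macrophages, including the transferrin gene Trf (1.40, SE 0.11) and the ceruloplasmin gene Cp (2.08, SE 0.30), and 1 in monocytes, the iron exporter gene Slc40a1 (-2.25, SE 0.55). Of 39 respiratory chain genes, 23 were not called, 13 were higher in macrophages, such as Ndufa5 (0.80, SE 0.08), and 3 in monocytes, such as Ndufa4 (-1.22, SE 0.18). Marco and Slc40a1 were named after their values were seen.

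All 43 cell cycle genes tested were higher in macrophages, with a median of 2.81 and 41 of them at least 2-fold, where 11% of all genes were. In all 43 the macrophage libraries lay above the monocyte libraries, against 25.6% of all genes. Mki67 (Entrez 17345, chromosome 7, 135689784 to 135716450), the gene of the proliferation antigen Ki-67, was at 144, 146, 207, 96.2 and 219.5 CPM in macrophages and 9.53, 12.7, 23.1, 16 and 12.2 CPM in monocytes. Macrophage replicate 4 was lowest of its group and monocyte replicate 3 highest of its own (log2 fold change 3.46, SE 0.27, adjusted p = 5.2e-07). The replication licensing genes Mcm5 (2.80, SE 0.13) and Mcm3 (2.44, SE 0.12), the replication gene Gins2 (2.23, SE 0.11), the S-phase factor gene E2f1 (1.51, SE 0.06) and the mitotic genes Ccnb2 (3.17, SE 0.21) and Cdk1 (2.96, SE 0.39) showed the same order. The SD of log2 CPM within groups of these genes had a median of 0.41 in treated and 0.71 in control libraries. It was smaller in treated libraries for 43 of 43, and for 12329 of 15390 over all genes (medians 0.18 and 0.26).

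Promoters of mitotic genes are known for the cell cycle homology element, TTTGAA, and for CCAAT boxes bound by NF-Y, so the windows of Ccnb2 and Cdk1, named after their values were seen, are printed to show both. The windows come from RefSeq (GRCm38.p6), run from 250 bases before to 20 bases after the annotated start, and carry in capitals each TTTGAA and CCAAT on either strand.
Ccnb2 (chr9:70421535-70421804, minus strand): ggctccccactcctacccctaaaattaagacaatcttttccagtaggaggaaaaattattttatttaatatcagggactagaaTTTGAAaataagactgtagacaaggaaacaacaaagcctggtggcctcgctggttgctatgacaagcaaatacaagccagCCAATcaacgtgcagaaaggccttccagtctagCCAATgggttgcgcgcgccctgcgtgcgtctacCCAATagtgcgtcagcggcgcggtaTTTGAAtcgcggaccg
Cdk1 (chr10:69352893-69353162, minus strand): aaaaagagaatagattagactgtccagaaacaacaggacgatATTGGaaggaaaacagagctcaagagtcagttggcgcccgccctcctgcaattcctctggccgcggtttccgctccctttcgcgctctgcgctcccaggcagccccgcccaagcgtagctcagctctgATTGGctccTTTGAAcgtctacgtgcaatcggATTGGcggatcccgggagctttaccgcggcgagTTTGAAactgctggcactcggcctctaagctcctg
Of the 35 cell cycle genes with a window in the RefSeq table (300 bases, 250 before to 50 after the start), 17 held TTTGAA on either strand (48.6%) and 26 held CCAAT (74.3%). Of all 27025 genes in the table, 20.2% held TTTGAA and 41.1% held CCAAT, and of the 10500 that were tested 14.8% and 42.5% did. In the windows printed no match of one motif overlapped a match of the other, and a match is a description of the window only.

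Most monocyte identity genes were higher in monocytes. Of 17 classical monocyte markers, 16 were higher in monocytes, with a median of -3.54. The exception was Cd93, a receptor gene (0.74, SE 0.09), named after its values were seen. Plac8 was at 40.3, 45.7, 30.4, 68.9 and 32.6 CPM in macrophages and 3070, 3222, 3771, 3337 and 4858 CPM in monocytes, without overlap (log2 fold change -6.39, SE 0.26, adjusted p = 4.72e-09). The haptoglobin gene Hp (-7.58, SE 0.30), the chitinase-like gene Chil3 (-7.23, SE 0.50) and Ccr2 (194 ± 53.4 against 1105 ± 116 CPM, -2.51, SE 0.18) were higher in monocytes too. Of 16 nonclassical monocyte markers, 10 were higher in monocytes and 2 in macrophages, with a median of -1.04. Beside Ace they included the adhesion receptor gene Adgre4 (-6.90, SE 0.40) and Nr4a1 (535 ± 50.5 against 2419.9 ± 336 CPM, -2.18, SE 0.11). The members higher in macrophages were the fractalkine receptor gene Cx3cr1 (936 ± 87.4 against 266 ± 53.1 CPM, 1.81, SE 0.14) and Cd300e (2.41, SE 0.32), chosen after seeing its values.

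Neutrophil genes were higher in the monocyte libraries. All 12 tested members of the neutrophil list were higher in monocytes, with a median of -4.60. S100a9 (Entrez 20202, chromosome 3, 90692630 to 90695721), a calprotectin subunit gene, was at 0.0759, 0, 0.0523, 0.143 and 0.0819 CPM in macrophages, at or near the floor of 3 counts, and 161, 132, 15.4, 56.9 and 42.7 CPM in monocytes, and S100a8 was at 0.0253, 0.158, 0.105, 0.857 and 0.382 CPM and 74.9, 61.4, 7.66, 27.9 and 22.3 CPM. Monocyte replicate 3 was lowest and replicate 1 highest in both. Cxcr2, the neutrophil chemokine receptor gene, was at 33.6, 25.3, 3.8, 13.7 and 6.37 CPM in monocytes and between 0 and 0.109 CPM in macrophages. Cd177 was at 68 ± 11.7 CPM in monocytes, where it ranged only from 53.6 to 80 CPM, against 0.083 ± 0.0904 CPM. The serpin gene Serpinb10, which is not a member of the neutrophil list, was at 63 ± 30.2 CPM in monocytes against 0.0431 ± 0.0563 CPM. No fold change is given for these 5 genes because their macrophage counts lie at or near the floor. Ly6g, Mpo, Elane, Ngp and Camp were too low to be tested, with 0 or 1 count over the 5 macrophage libraries and 6 to 72 counts over the 5 monocyte libraries. The summed level of the list was 151 to 214 CPM in macrophages and 473 to 845 CPM in monocytes. It includes Csf3r, a receptor gene that monocytes also express, which was at 90 ± 18.2 and 201 ± 30.9 CPM on the scale of single genes. The part of neutrophil RNA in the inflammatory genes below, and in Mmp9 and Mmp8 (-4.43), was not tested.

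Interferon-induced genes were mostly higher in monocytes. Of 38 type I interferon response genes, 33 were higher in monocytes and 3 in macrophages, with a median of -0.92. Of 35 IFN-gamma response genes, 28 were higher in monocytes and 3 in macrophages, with a median of -0.84. Isg15 (Entrez 100038882, chromosome 4, 156199424 to 156200818), a ubiquitin-like modifier induced by interferon, was at 246, 288, 169.9, 210.3 and 172 CPM in macrophages and 534, 765, 651, 603 and 494 CPM in monocytes, without overlap (log2 fold change -1.49, SE 0.16, adjusted p = 7.25e-06). Gbp2 (Entrez 14469, chromosome 3, 142620663 to 142638008), an interferon-induced GTPase, was at 884, 1030.3, 1055, 1429.9 and 777 CPM in macrophages and 3682, 4119, 2774, 2686 and 2564 CPM in monocytes. Macrophage replicate 4 was the highest of its group and remained below all monocyte libraries (log2 fold change -1.61, SE 0.18, adjusted p = 8.66e-06). The Ifi200 family genes Ifi205 (-2.84, SE 0.17) and Ifi204 (-1.14, SE 0.11), the antiviral genes Oas3 (-1.31, SE 0.11) and Ifitm3 (-1.05, SE 0.10), the regulator gene Irf1 (-1.40, SE 0.15), the GTPase gene Gbp3 (-0.87, SE 0.08) and the chemokine genes Cxcl10 (-1.23, SE 0.16) and Cxcl11 (-1.73, SE 0.20) were higher in monocytes.

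The exceptions were few. Cxcl9 (Entrez 17329, chromosome 5, 92321331 to 92328079), an IFN-gamma-induced chemokine for T cells, was at 1721, 1534, 1569, 1765 and 1269.8 CPM in macrophages and 1142, 1318, 849, 1073 and 716 CPM in monocytes. It was higher in macrophages although 2 libraries overlapped, macrophage replicate 5 lying below monocyte replicate 2 (log2 fold change 0.62, SE 0.15, adjusted p = 0.00357). The other 2 IFN-gamma members on the macrophage side were Il18bp, an inhibitor of interleukin-18 (0.49, SE 0.16), and Serpina3g (0.46, SE 0.13). The 3 type I members there were Siglec1 (0.92, SE 0.10), Bst2 (0.48, SE 0.10) and Ifi44 (0.60, SE 0.18). These 5, like Isg15 and Cxcl10, were named after their values were seen. Ido1, an IFN-gamma-induced enzyme of tryptophan breakdown also named so, was at 0.153 ± 0.0775 CPM in macrophages and 1.07 ± 0.551 CPM in monocytes. Il18bp did not pass without the 3 libraries highest in fibroblast markers (0.41, adjusted p = 0.0786) or with all 20 libraries in the fit (adjusted p = 0.0565). Counts of Gbp, Oas and Ifi200 genes are uncertain, since reads matching more than 1 relative were dropped.

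Many interferon-induced genes are known to carry the interferon-stimulated response element, searched here on both strands as GAAA, any 2 bases and GAAA, and the windows of Isg15, Cxcl10 and Gbp2 are printed with each match in capitals. In Isg15, 3 overlapping matches form 1 run, and in Gbp2 the match is on the other strand.
Isg15 (chr4:156200799-156201068, minus strand): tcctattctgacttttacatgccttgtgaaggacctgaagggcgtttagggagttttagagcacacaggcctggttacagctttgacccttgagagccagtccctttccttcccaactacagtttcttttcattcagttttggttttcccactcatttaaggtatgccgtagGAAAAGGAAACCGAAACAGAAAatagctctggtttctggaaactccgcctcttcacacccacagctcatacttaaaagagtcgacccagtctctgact
Cxcl10 (chr5:92348870-92349139, minus strand): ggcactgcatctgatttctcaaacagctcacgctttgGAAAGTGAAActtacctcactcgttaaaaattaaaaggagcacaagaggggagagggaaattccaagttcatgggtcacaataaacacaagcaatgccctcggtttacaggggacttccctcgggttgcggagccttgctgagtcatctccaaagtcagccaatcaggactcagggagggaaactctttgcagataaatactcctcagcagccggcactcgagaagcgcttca
Gbp2 (chr3:142620413-142620682, plus strand): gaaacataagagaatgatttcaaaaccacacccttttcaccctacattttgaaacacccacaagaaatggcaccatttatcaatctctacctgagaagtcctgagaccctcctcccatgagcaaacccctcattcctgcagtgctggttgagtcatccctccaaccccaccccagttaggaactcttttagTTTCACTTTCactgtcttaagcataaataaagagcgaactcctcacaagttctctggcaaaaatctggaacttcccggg
The element was in 16 of the 27 type I interferon genes with a window (59.3%) and in 11 of the 22 IFN-gamma genes with a window (50%), against 3.99% of all 27025 windows and 4.01% of those of the 10500 matched genes tested. Of the cell cycle genes 1 of 35 held it (2.86%). The printed windows end 20 bases after the start, while the search used 300 bases.

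The PD-L1 gene and some costimulation genes were higher in monocytes. Cd274 (Entrez 60533, chromosome 19, 29362107 to 29388095), the gene of the antibody's target PD-L1, was at 392, 396, 364, 552 and 322 CPM in macrophages and 726, 1280.5, 744, 578 and 569 CPM in monocytes. All monocyte libraries were above all macrophage libraries, with monocyte replicate 2 highest (log2 fold change -0.94, SE 0.22, adjusted p = 0.00241). Of 20 checkpoint and costimulation genes, 11 were higher in monocytes and 3 in macrophages, with a median of -0.34. This was 70% called, near the 63.5% of all genes, and 3 of the 11 were at least 2-fold. The CD28 ligand gene Cd80 was at 31.2 ± 1.43 against 145 ± 12.8 CPM (-2.22, SE 0.07), and the TIGIT and CD96 ligand gene Pvr (-1.35, SE 0.09) and the inhibitory receptor gene Lilrb4a (-1.11, SE 0.11) were also higher in monocytes. Those higher in macrophages, Siglec1, the ICOS ligand gene Icosl (0.64, SE 0.13) and Nectin2 (0.74, SE 0.10), were named after their values were seen.

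**Figure D4:**
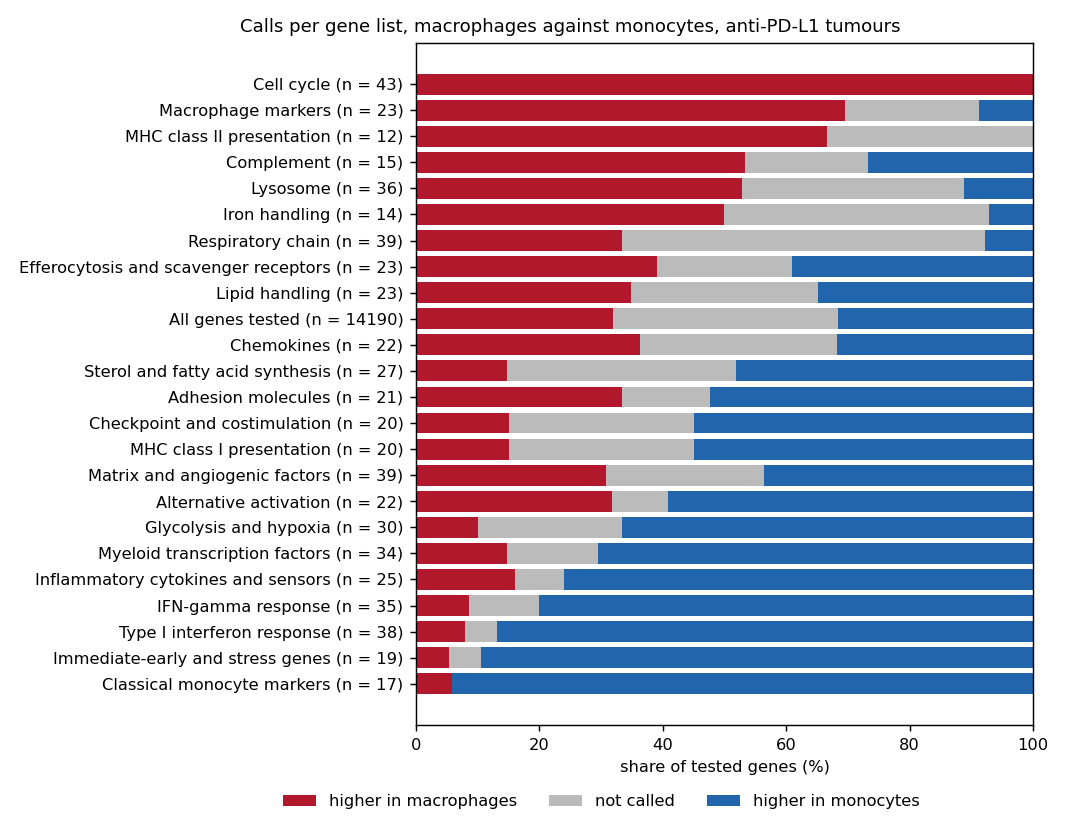
Share of tested genes (x axis, percent) that were higher in macrophages (red), higher in monocytes (blue) or not called (grey) in each gene list (y axis, n tested), with all 14190 genes tested as a row for comparison. Cell cycle genes stand at one end with 43 of 43 higher in macrophages and classical monocyte markers at the other with 16 of 17 higher in monocytes.

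Inflammatory genes were higher in monocytes in 19 of 25 cases and in macrophages in 4, with a median of -1.27. Il1b (Entrez 16176, chromosome 2, 129364569 to 129371164), the gene of interleukin-1 beta, was at 2276, 2139, 1372, 1798 and 2257 CPM in macrophages and 6738, 8223, 6934, 7288 and 8330.5 CPM in monocytes (log2 fold change -1.93, SE 0.14, adjusted p = 2.53e-07). Il6 (Entrez 16193, chromosome 5, 30013114 to 30019975), which encodes interleukin-6, was at 1.67, 1.83, 1.15, 3.88 and 3.22 CPM in macrophages and 28.3, 54.1, 43.9, 25.1 and 52.2 CPM in monocytes (log2 fold change -4.12, SE 0.34, adjusted p = 6.7e-07). Neither gene overlapped between the groups, and Il6 had a slope of 0.02 on fibroblast markers in the controls. The cytokine genes Osm (-2.35, SE 0.09), Tgfb1 (-1.41, SE 0.07) and Il18 (-1.48, SE 0.09) and the prostaglandin synthase gene Ptgs2 (-1.73, SE 0.10) were higher in monocytes. On the macrophage side were Il12b (2.65, SE 0.27), Il10 (1.23, SE 0.32), Ebi3 (1.07, SE 0.08) and Tlr4 (0.29, SE 0.09), genes of cytokines or their subunits and of the endotoxin receptor, which were named, like Il1b, after their values were seen.

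The arginine enzymes were both higher in monocytes, with wide spreads. Nos2 (Entrez 18126, chromosome 11, 78920787 to 78960226), an inducible enzyme that makes nitric oxide, was at 93.3, 187, 174, 231 and 171 CPM in macrophages and 457, 1058, 727, 288 and 358 CPM in monocytes, and the groups did not overlap (log2 fold change -1.76, SE 0.34, adjusted p = 0.000737). Arg1 (Entrez 11846, chromosome 10, 24915207 to 24927470), arginase, was at 302, 416, 558, 1381 and 828 CPM in macrophages and 1234, 2681, 1109, 646 and 1584 CPM in monocytes. The groups overlapped, and the call was at the threshold (log2 fold change -1.06, SE 0.43, adjusted p = 0.047). It passed without macrophage replicate 4 or monocyte replicate 3 or 4 and was lost on leaving out any of the other 7 libraries (highest adjusted p = 0.162), in DESeq2 (adjusted p = 0.0643) and without the 3 libraries highest in fibroblast markers (adjusted p = 0.151). Of 22 alternative activation genes, 13 were higher in monocytes and 7 in macrophages, with Chil3 and Klf4 (-1.99, SE 0.12) on the former side and Mrc1 on the latter.

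Chemokine genes split evenly, with 8 of 22 higher in macrophages and 7 in monocytes (68.2% called, against 63.5% of all genes). Ccl8, Ccl7 (2.66, SE 0.36) and Ccl12 (1.86, SE 0.17), monocyte chemoattractants, and Cxcl14 (2.10, SE 0.17) were higher in macrophages, Ccl7 being named after its values were seen. Cxcl13, a B cell chemokine gene, was at 6.25 ± 2.18 CPM in macrophages and 0.127 ± 0.153 CPM in monocytes. Among 16 receptors for chemokines and other attractants, 5 were higher in macrophages and 8 in monocytes, including Cxcr4 (-1.55, SE 0.15).

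Transcription factor genes of myeloid cells were higher in monocytes in 24 of 34 cases, with a median of -0.70. They included the orphan receptor gene Nr4a2 (-2.24, SE 0.11), Klf4, Runx3 (-1.43, SE 0.07), Cebpb (136 ± 29 against 592 ± 92.9 CPM, -2.12, SE 0.16), Spi1, the gene of PU.1 (-0.52, SE 0.07), and Irf8 (-0.41, SE 0.11), which had an adjusted p of 0.0596 with all 20 libraries in the fit. The 5 on the macrophage side were Bhlhe41 (21.9 ± 9.01 against 1.85 ± 0.77 CPM, 3.57, SE 0.34), Batf3, the lipid receptor gene Pparg (1.003, SE 0.34), Myc (0.72, SE 0.09) and Cebpa (0.64, SE 0.11). Pparg had an adjusted p of 0.0507 without monocyte replicate 4. Cebpb and these 5 other than Batf3 were named after their values were seen. Immediate-early and stress genes, which answer stimuli within a short time, were higher in monocytes in 17 of 19 cases, with a median of -1.21. Zfp36 (1109 ± 94.8 against 3159 ± 194 CPM, -1.51, SE 0.08), Junb (-1.25, SE 0.09) and Ier2 (-1.30, SE 0.06) were among them, and 1 member was higher in macrophages, the chaperone gene Hsph1 (0.23, SE 0.07), named after its values were seen. It did not pass with all 20 libraries in the fit (adjusted p = 0.528).

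Of 30 glycolysis and hypoxia genes, 20 were higher in monocytes and 3 in macrophages, with a median of -0.48. The hypoxia-responsive transcription factor gene Hif1a (258 ± 53.4 against 699 ± 122 CPM, -1.44, SE 0.15), the lactate exporter gene Slc16a3 (-1.25, SE 0.12) and Vegfa were on the monocyte side. The 3 on the macrophage side were Pfkm (1.20, SE 0.09), which follows fibroblast RNA in the controls, Aldoc (0.75, SE 0.16) and Pdk1 (0.31, SE 0.11). The last 2 were named after their values were seen, and Pdk1 did not pass without macrophage replicate 2 or 5 or monocyte replicate 3 or 4 (highest adjusted p = 0.0786), with the fibroblast covariate (adjusted p = 0.0565) or without the 3 libraries highest in fibroblast markers (adjusted p = 0.0915). Sterol and fatty acid synthesis genes were higher in monocytes in 13 of 27 cases and in macrophages in 4. This was 63% called, against 63.5% of all genes. Of 7 colony-stimulating factor genes and receptors, 5 were higher in monocytes and 0 in macrophages, including the receptor genes Csf2rb (-1.60, SE 0.11), Csf2ra (-0.85, SE 0.10) and Csf3r (-1.16, SE 0.15). Adhesion genes divided into 11 higher in monocytes, such as the hyaluronan receptor gene Cd44 (-1.79, SE 0.08), and 7 higher in macrophages of 21, such as the integrin genes Itga9 (2.65, SE 0.13) and Itga6 (2.22, SE 0.17). In all, 85.7% of the adhesion genes were called. Of 39 matrix and angiogenic genes, 17 were higher in monocytes and 12 in macrophages (74.4% called). The latter included the growth factor gene Pdgfb (1.75, SE 0.08) and Igf1, a growth factor gene at 2.33 ± 1.79 against 0.299 ± 0.184 CPM and named after its values were seen. Spp1, the osteopontin gene, was at 143, 201, 267, 312 and 439 CPM in macrophages and 519, 587, 554, 313 and 789 CPM in monocytes. It was higher in monocytes (log2 fold change -1.02, SE 0.29, adjusted p = 0.00819), but not past the test without the 3 libraries highest in fibroblast markers (-0.66, adjusted p = 0.113).

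**Figure D5:**
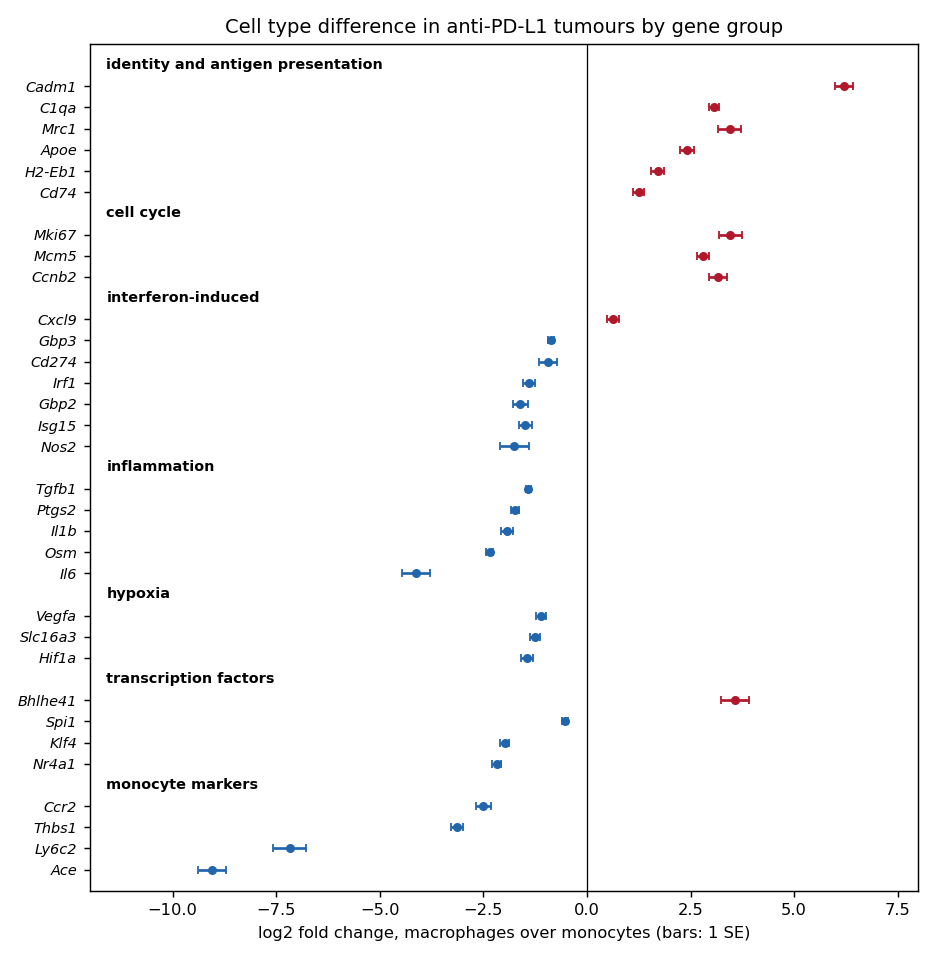
Log2 fold change of macrophages over monocytes (x axis) with bars of 1 SE for named genes (y axis), grouped by role, red where higher in macrophages and blue where higher in monocytes. Identity, class II and cell cycle genes lie right of 0 and the inflammation and hypoxia genes shown lie left of it, as do the interferon-induced genes except Cxcl9 and the transcription factors except Bhlhe41.

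Whether the cell type difference itself differed between treated and control tumours was tested over all 20 libraries. Of 15390 genes, edgeR called 0 (lowest adjusted p = 0.173), while 980 had an unadjusted p under 0.05. DESeq2 called 7 and limma-voom 0. The 7 were Cd81 (a difference of 1.27 between the log2 fold changes), Masp1 (2.73), Sorbs3 (2.80), Prune2 (1.26), Bclaf3 (-0.78), Rgl3 (2.22) and R74862 (1.61). With neighbouring libraries as a replicate block edgeR called 3, Iigp1 (-0.79), Samsn1 (-0.60) and Chpf (2.24). Without monocyte control replicate 5 it called 41, with 1865 at an unadjusted p under 0.05, and without macrophage control replicate 4 it called 1, Prune2 (1.43). These genes, other than Cd81, were named after their values were seen. Simulated counts of this design recovered 71.2% of differences of 4-fold and 32.8% of 2-fold. All treated libraries carry higher sample numbers than all control libraries, so treatment and the order of these numbers cannot be told apart in this test.

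The values from both kinds of tumour are given side by side from the fit of 20 libraries. Cell cycle genes had a median of 2.83 in treated and 1.66 in control tumours, with 28 of 43 at an unadjusted p under 0.05 for the difference and 0 called, against 980 of 15390 genes. Genes of a list may vary together, so this share is no test of the list. Mki67 was at 174 ± 54.4 CPM in treated and 248 ± 42.3 CPM in control macrophages, and at 15.5 ± 5.38 and 39.5 ± 19.1 CPM in monocytes. Cdk1 was at 72.6 ± 19.8 and 130 ± 32.1 CPM in macrophages and 9.09 ± 6.57 and 55.2 ± 39.4 CPM in monocytes. Cd81 was at 4.18 and 2.92 (difference 1.26, SE 0.29, adjusted p = 0.493), Cadm1 at 6.23 and 5.12 (difference 1.11, SE 0.40, adjusted p = 0.688), and Ace at -9.02 and -7.01 (difference -2.01, SE 0.57, adjusted p = 0.688). Inhba was at -4.49 in treated and -1.36 in control tumours (difference -3.13, SE 0.86, adjusted p = 0.688), and Csf1 at -2.42 and -0.91 (difference -1.51, SE 0.64, adjusted p = 0.738). None of these 5 differences passed. The type I interferon list had medians of -0.89 and -0.59 and the IFN-gamma list -0.82 and -0.48. Of the 899 genes that follow fibroblast RNA, 94 were higher in macrophages and 89 in monocytes in treated tumours, against 11 and 45 in control tumours. Over all genes, 4334 and 3959 were called in treated and 3700 and 3084 in control tumours (44.1% in the latter). The fibroblast-following genes were chosen by their variation in the control libraries, so their lower number of calls there follows in part from that choice.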

How the data were processed

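RNA from 10 macrophage and 10 monocyte samples of MC38 tumours, 5 from control and 5 from anti-PD-L1 tumours of each, was made into libraries with a stranded kit and 0.1 ug of input, per the labels' protocols. The authors aligned reads with GSNAP to GRCm38, per the submitters' processing notes, and deposited whole-number counts per Entrez gene model from unique alignments. The annotation, counting program and use of strand were not given in the sources used here, so overlapping and antisense genes are uncertain. The deposited RPKM values are these counts times a fixed factor per gene and a fixed factor per library, which the files' own counts reproduced. Gene lengths were not checked, and the RPKM values served only as that check. Of 36528 models, 31049 (85%) matched a RefSeq symbol and hold 98% of the counts.

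The members and the gene lists were chosen with earlier results of these data known. Groups came from the titles. Genes passing edgeR's low-count filter were tested with edgeR 4.0.16 (TMM scaling, quasi-likelihood test, R 4.3.3) on the 10 treated libraries, and over all 20 for the difference between treated and control tumours. A fit on the 10 control libraries with cell type and the fibroblast marker level gave the genes that follow fibroblast RNA. P-values were adjusted by Benjamini and Hochberg over all genes of a fit. The scripts were tested on simulated data: with 200 genes changed, the treated comparison recovered 52.2%, 70.1% and 93.9% of changes of 1.5, 2 and 4-fold among 14190 genes, with 7 false calls. In the data 9017 genes were called, so recovery there may differ. Totals of 30191509 to 36514133 counts per library put 3 counts at no more than 0.0994 CPM. No 2 replicates agreed within sampling noise (lowest chi-square per degree of freedom 22.1).

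The genes named were the 4 markers given, the 10 highest and 10 lowest separated fold changes at an average log2 CPM of 4 or more, up to 4 called members of each list by smallest p, up to 6 each way of the genes known in both cell types, the 6 highest and 6 lowest that follow fibroblast RNA, and a short list always allowed, such as Nos2 and Arg1. Others are marked in the text, and some genes are not reported here. Alternatives were other size factors, DESeq2 1.42.0, limma-voom (limma 3.58.1), no filter, each library left out, all 20 libraries, a replicate block, the fibroblast marker level as a covariate, and, added after seeing the data, the 3 libraries highest in fibroblast markers left out. The block pairs the macrophage and monocyte libraries whose titles carry neighbouring sample numbers. Their deviations from the group means correlated at 0.37 to 0.56 over 10145 genes in the 5 pairs, and each library correlated most with its neighbour. Other pairings lay between -0.42 and 0.31. The highest was macrophage replicate 2 with monocyte replicate 5, both among the 3 libraries highest in fibroblast markers, and the part of fibroblast RNA in these correlations was not tested. The labels do not say what neighbouring libraries share.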

Additional observations from a re-analysis of the deposited data

Results flagged for a closer look

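In 384 groups of 5 libraries checked, 18 had 1 library far from the other 4 for a gene considered for naming, by Dixon's 95% limit of 0.71 on the gap over the range. Chance flags about 1 in 20 such groups, so this number is no more than chance gives. The values are log2 CPM in the library, with the nearest of the other 4 in brackets.

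Among macrophages, replicate 2 was low for Mrc1 at 6.75 (7.58) and for Nr4a2 at 6.32 (6.74) and high for the phosphatase gene Dusp16 at 5.52 (5.32). Replicate 1 was low for Slc16a3 at 7.83 (8.35), for Aldoc at 5.93 (6.27) and for Angptl2 at 3.61 (4.47). Replicate 3 was low for Thbs1 at 8.47 (9.08) and for Cebpb at 6.44 (7.08), and replicate 4 was low for Cx3cr1 at 9.61 (9.88). Replicate 5 was high for Cd163 at 2.66 (0.04), and that call depends on it.

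Among monocytes, replicate 3 was low for C1qa at 8.74 (9.15), for C1qb at 9.44 (9.92) and for Aldoc at 4.67 (5.58). Replicate 2 was low for Nrp1 at 5.73 (6.22) and high for Mmp13 at 6.08 (5.20) and Fcgr1 at 10.5 (10.3). Replicate 5 was high for Col14a1 at 3.30 (2.16) and for Cebpa at 7.18 (6.87). Monocyte replicates 3 and 5 are also the treated libraries highest in fibroblast markers, at 3.53 and 3.47, and the part of this in the flags was not tested.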

How the results depend on the processing

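The counts of genes higher in macrophages or in monocytes over all genes tested, with or without the 2-fold limit, stayed within 1.5 times under each alternative run. Leaving out 1 library gave 4323 to 4614 and 4110 to 4497. Among the genes that follow fibroblast RNA the counts moved: those higher in macrophages, 151, were 132 to 227 with 1 library left out, 94 with all 20 libraries, 209 with the replicate block, 266 with the fibroblast covariate and 232 without the 3 libraries highest in fibroblast markers. Those higher in monocytes, 141, were 121 to 187 with 1 library left out, 89 with all 20 libraries and 212 with the replicate block. The number of genes following fibroblast RNA, 1393, was 1174 to 1543 with 1 control library left out. For the treated against control difference, 0 calls became 7 with DESeq2, 3 with the replicate block, where 2394 genes had an unadjusted p under 0.05, and 0 to 41 with 1 library left out, the highest without monocyte control replicate 5. The cause was not tested in any of these.

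Of 192 genes considered for naming, 174 kept direction and side of the threshold in all 18 settings. Reversals were Col3a1 (0.082, adjusted p = 0.616), Sparc (0.20, adjusted p = 0.192) and Hspg2 (0.31, adjusted p = 0.546) with the fibroblast covariate, and Hspg2 without monocyte replicate 3 (0.29, adjusted p = 0.675), its values with 1 library left out being -1.55 to 0.29. The 3 were not called with all 10 libraries. The replicate block changed the calls of Csf1r and Col3a1 and of no other named gene. In all, 9892 genes were called with it, 8982 of them among the 9017 called without it. At a floor of 3 counts, levels under 0.0994 CPM cannot be told from 0.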
